A study of Caenorhabditis elegans with 4 samples.

Results

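The histone genes of Caenorhabditis elegans were examined in poly(A) RNA from whole larvae of the third stage (L3). The genes were those whose symbol is his- or hil- followed by a number, together with htz-1, and 81 of the 46748 genes counted met that rule. There were 2 libraries of the double mutant, strain GW638 met-2(n4256) set-25(n5021), named rWQS029 and rWQS045 in the tables, and 2 libraries of wild type, strain Bristol N2, named rWQS019 and rWQS042. All worms were raised at 20°C on NGM plates and frozen whole, so each value is an average over every tissue of the larva. MET-2 and SET-25 methylate histone H3 on lysine 9, and the comparison asks how histone mRNA levels differ when both enzymes are mutated. Values of single libraries are given as rWQS029 and then rWQS045 for met-2 set-25, and rWQS019 and then rWQS042 for wild type.

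Histones H2A, H2B, H3 and H4 form the nucleosome core, and H1 linker histones bind the DNA between cores. Core histones made for DNA replication come from many clustered, near-identical genes, and their mRNAs end in a conserved stem-loop in place of a poly(A) tail, so poly(A) selection is known to deplete them. Variant histones such as H2A.Z and H3.3 replace the replication forms outside S phase and usually come from dispersed genes with introns and polyadenylated mRNAs.

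The libraries held 36581352 and 48636767 counts in met-2 set-25 and 22849521 and 56879896 counts in wild type. Across genes, which are not independent replicates, the mutant libraries correlated at r = 0.947 and the wild type libraries at r = 0.981 on log2 CPM (CPM being counts scaled to a common library total with TMM factors). Ribosomal RNA, which has no poly(A) tail, took 0.198% and 0.367% of counts in met-2 set-25, and 0.544% and 0.0972% in wild type. met-2 was at 33.6 ± 2.52 CPM in met-2 set-25 and 58.9 ± 4.34 CPM in wild type (SD, n = 2 each), and set-25 at 11.6 ± 0.0526 CPM in met-2 set-25 and 14.5 ± 4.32 CPM in wild type. Transcripts of both mutated genes were thus still counted, and gene totals check the labels only weakly. A list of 21 germline markers summed to 1230 and 2538 CPM in met-2 set-25, against 499 and 523 CPM in wild type, and every member was higher in rWQS045 than in rWQS029. In bulk samples, a change in the number of cells of a type and a change in RNA per cell cannot be told apart.

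By class, assigned from the gene symbols, the 81 genes were 17 H2A, 17 H2B, 16 H3 and 16 H4 genes. The others were 5 H3 variants, 1 H2A.Z gene (htz-1), 8 H1 genes and hil-8, which was put in no class. Of these, 65 core genes had another core gene within 5 kb in the WBcel235 annotation. They formed 13 loci on chromosomes I, II, IV, V and X, the largest with 13 genes on chromosome II. The 14 variant and linker genes were htz-1, his-69 to his-72, his-74, his-24 and hil-1 to hil-7. The remaining 2 genes, hil-8 and his-73, belonged to neither group. The coding length was the same, without the stop codon, for 16 of 17 H2A genes (381 bases), 15 of 16 H3 genes (408 bases) and all 16 H4 genes (309 bases), and 11 of 17 H2B genes shared 369 bases. Most clustered genes, 61 of 65, were single exons with no annotated 3′ untranslated region. The 4 exceptions, his-35, his-41, his-37 and his-57, had introns and a 3′ untranslated region, as did 12 of the 14 variant and linker genes.

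Most of the histone mRNA counted came from few genes. Histone genes took 0.111% and 0.131% of all counts in met-2 set-25, and 0.138% and 0.103% in wild type. The 14 variant and linker genes summed to 694 and 1010 CPM in met-2 set-25, against 907 and 683 CPM in wild type. The 4 clustered core genes with introns summed to 319 and 374 CPM in met-2 set-25, against 403 and 312 CPM in wild type. The 61 intronless core copies together held only 19.8 and 47.8 CPM in met-2 set-25, against 59.8 and 29.2 CPM in wild type. In each of these sums the ranges of the genotypes overlapped.

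**Figure D1:**
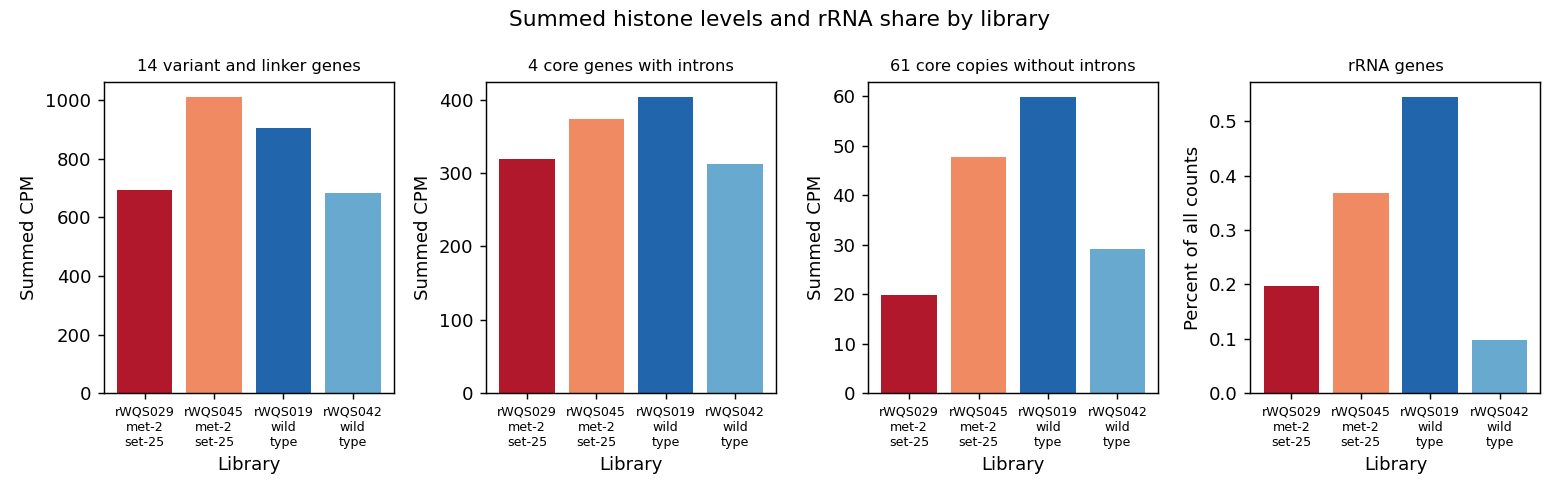
Summed levels of 14 variant and linker histone genes, 4 clustered core genes with introns and 61 intronless core copies (TMM-scaled CPM), and the share of counts from ribosomal RNA genes (percent), one bar per library. The intronless copies and rRNA are both highest in wild type library rWQS019 (59.8 CPM and 0.544%), and within met-2 set-25 both are higher in rWQS045 than in rWQS029. The core genes with introns are also highest in rWQS019 (403 CPM), and the variant and linker genes in rWQS045 (1010 CPM). Both of these sums are likewise higher in rWQS045 than in rWQS029.

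The intronless copies could not be followed one by one. In 19 of the 61 no read was counted in any library, which allows a level of up to 0.0182 CPM over all 4 libraries (3 counts of 164947536, counting error only). Ensembl gives several copies one and the same name, and 35 of the intronless copies carried such a shared name. Those 35 held 25 and 34 counts in all in met-2 set-25, against 49 and 33 counts in wild type, and 28 of them had at most 1 count in every library. The other 26, with a name of their own, held 754 and 2097 counts in met-2 set-25, against 1325 and 1634 counts in wild type. All 7 intronless H4 copies with a shared name were at 0 in every library. How reads that match several copies were counted is not given in the sources used here, and sequence identity between copies was not computed here, so a low count of a copy need not be a low level. The filter on low counts kept 2 of the 35 and 19 of the 26. Over all histone genes it kept 38 of 81, namely 25 clustered core, 11 variant and linker, and 2 other genes.

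Among the tested histone genes, a single one passed a threshold in the genotype comparison. edgeR's quasi-likelihood test called 0 of 38 histone genes at an adjusted p under 0.05, where it also called 0% of all 15978 genes in either direction. At an unadjusted p under 0.05, edgeR gave 1 histone gene as higher (his-74) and 2 as lower (hil-7 and his-71), against 6.2% higher and 3.87% lower over all genes. DESeq2, the test of the study's methods, called 1 of 39 histone genes higher (his-74) and 0 lower, against 2.49% and 0.821% over 16562 genes. CPM ranges did not overlap in 4 histone genes that were higher in met-2 set-25 (his-74, hil-4, hil-5 and his-57) and in 4 that were lower (his-71, hil-7, his-31 and his-32), against 22.1% and 21.1% over all genes. The edgeR log2 fold change of met-2 set-25 over wild type was above 0 in 11 of 38 histone genes, against 51.6% of all genes, with a median of -0.24 over histone genes and 0.02 over all genes. It lay within 0.5 of 0 in 19 of the 38 and within 1 in 30. Its quartiles were -0.719 and 0.0799 over tested histone genes, against -0.345 and 0.368 over all tested genes.

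**Figure D2:**
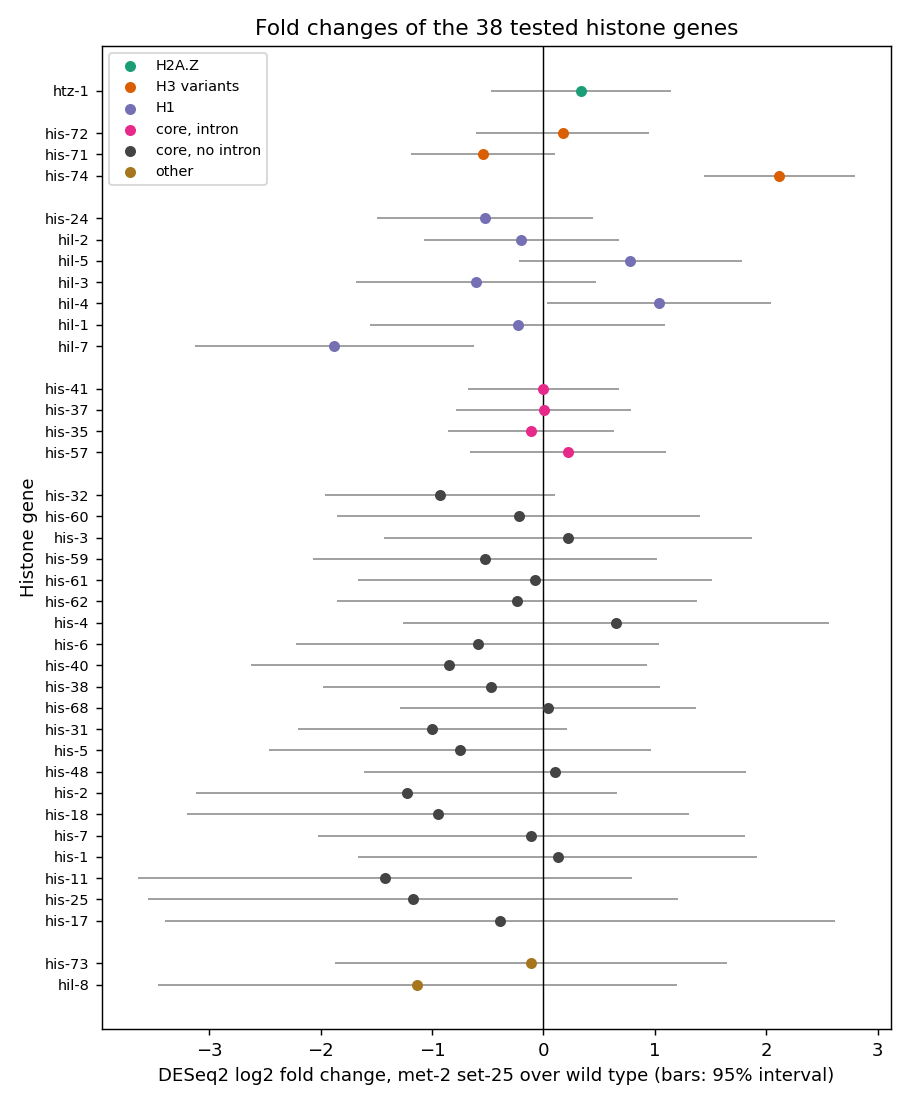
DESeq2 log2 fold changes of met-2 set-25 over wild type for the 38 tested histone genes, grouped by class from top to bottom, with bars giving the unadjusted 95% interval. his-74 (2.12) is the one gene called by DESeq2, the intervals of hil-7 and hil-4 also miss 0 before adjustment, and the widest bars belong to low genes such as the intronless core copies.

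The clustered genes with introns were dominated by 1 locus of 3 genes on chromosome V, his-35 (H2A), his-41 (H2B) and his-37 (H4), at 9544659 to 9547607 in the WBcel235 annotation. They took 93.1% and 88.0% of all clustered core counts in met-2 set-25, against 86.5% and 90.6% in wild type. Counted per kb of annotated exon, his-35 took 91.6% and 83.9% of the H2A copies' level in met-2 set-25, against 86.9% and 90.6% in wild type. The corresponding share of his-41 among H2B copies was 97.2% and 93.5% in met-2 set-25, against 93.1% and 97.4% in wild type. For his-37 among H4 copies it was 94.5% and 86.8% in met-2 set-25, against 85.9% and 90.02% in wild type. A single gene thus made up most of the counted level of its class in every library, in both genotypes. No clustered H3 gene had an intron, and the 15 clustered H3 copies gave only 2.42% and 3.04% of the CPM of clustered H3 copies and H3 variants together in met-2 set-25, against 6.21% and 4.67% in wild type. The rest of the counted level came from the H3 variants. Poly(A) selection and the unknown handling of reads shared by copies limit what all of these shares measure. They need not be shares of the mRNA present in the larva.

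None of these 3 genes differed between genotypes beyond the spread of their libraries. his-41 was at 121 and 141 CPM in met-2 set-25, against 141 and 124 CPM in wild type (edgeR log2 fold change -0.01, adjusted p = 0.988). his-37 was at 107 and 116 CPM in met-2 set-25, against 137 and 88.7 CPM in wild type (edgeR log2 fold change -0.01, adjusted p = 0.992). The ranges overlapped for both, and the mutant means lay inside the wild type range. his-35 was at 87.2 and 114 CPM in met-2 set-25, against 122 and 96.6 CPM in wild type (edgeR log2 fold change -0.12, adjusted p = 0.898), again with overlapping ranges. The DESeq2 standard errors of these fold changes were 0.35 for his-41, 0.40 for his-37 and 0.38 for his-35. Differences of that size, and somewhat larger ones, could therefore not be resolved. The libraries were taken not to mark strand, from the kit named in the study's methods. his-41 overlaps C50F4.6 on the same strand (36.1 to 47.4 CPM over the 4 libraries) and his-37 overlaps nstp-10 on the opposite strand (49.6 to 64.6 CPM), and part of their reads may belong to those genes. his-57, an H2A gene on chromosome IV, was far lower at 3.60 and 2.98 CPM in met-2 set-25, against 2.78 and 2.89 CPM in wild type (edgeR log2 fold change 0.21, adjusted p = 0.864). It lies across from klp-12 (155 to 188 CPM), and its own level is uncertain for that reason.

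The intronless core copies varied more between libraries of one genotype than between genotypes. Among the 21 that were tested, 18 were higher in rWQS045 than in rWQS029, and their summed level was 2.46-fold higher there. All 21 were higher in rWQS019 than in rWQS042, with a 2.03-fold higher sum. This direction was not particular to the intronless copies. Of the 11 tested variant and linker genes, 9 were higher in rWQS045 than in rWQS029, and 2 were higher in rWQS042 than in rWQS019. Over all 15978 tested genes these counts were 8101 and 7964. Ribosomal RNA moved in the same direction as the intronless copies inside each genotype (0.367% in rWQS045 against 0.198% in rWQS029, and 0.544% in rWQS019 against 0.0972% in rWQS042). The part of carried-over RNA without a poly(A) tail in these levels was not tested. In contrast, snoRNA genes were at 271 and 239 CPM in met-2 set-25, against 253 and 264 CPM in wild type, and did not follow the order of rRNA. Genes for snRNA, at 2.56 and 13.9 CPM in met-2 set-25 and 6.18 and 13.9 CPM in wild type, followed it in met-2 set-25 only. Of a list of 34 genes for DNA replication in S phase, all were higher in rWQS045 than in rWQS029 (median difference 0.79 on the log2 scale), whereas 20 of 34 were higher in rWQS042 than in rWQS019 (median 0.04).

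The most abundant of these copies lay in 3 loci. On chromosome IV, his-60 (H4) was at 1.70 and 8.59 CPM in met-2 set-25, against 8.44 and 3.78 CPM in wild type (edgeR log2 fold change -0.24, adjusted p = 0.936). In the same locus of 4 genes, his-59 (H3) was at 1.34 and 5.74 CPM in met-2 set-25, against 6.96 and 3.42 CPM in wild type (edgeR log2 fold change -0.54, adjusted p = 0.845). In both genes rWQS045 and rWQS019 were high, rWQS029 was low, and the genotypes overlapped. On chromosome V, his-3 (H2A) was at 1.42 and 8.30 CPM in met-2 set-25, against 5.31 and 3.17 CPM in wild type (edgeR log2 fold change 0.20, adjusted p = 0.950), with rWQS045 as the highest library. The order of libraries was another one for his-32 (H3) and his-31 (H4), tested copies of a locus of 6 genes on chromosome IV, where the other 4 had 0 counts in every library. his-32 was at 5.55 and 2.65 CPM in met-2 set-25, against 7.87 and 7.78 CPM in wild type (edgeR log2 fold change -0.93, adjusted p = 0.577). his-31 was at 0.812 and 0.605 CPM in met-2 set-25, against 1.52 and 1.33 CPM in wild type (edgeR log2 fold change -1.01, adjusted p = 0.535). In both, the mutant libraries lay below the wild type libraries and rWQS045 was the lowest of all. Neither gene passed the adjusted threshold of edgeR or DESeq2 with all 4 libraries. With rWQS045 as the only mutant library, assumed to vary like wild type, DESeq2 called his-32 as lower (adjusted p = 0.0442) along with 9.1% of all genes in either direction, and without rWQS045 its DESeq2 log2 fold change was -0.50 (adjusted p = 0.99962).

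Summed by class, the intronless copies overlapped between genotypes for H2A, H2B and H4 but not for H3. H2A copies held 4.16 and 15.1 CPM in met-2 set-25, against 12.7 and 6.08 CPM in wild type. H2B copies held 2.51 and 7.11 CPM in met-2 set-25, against 7.61 and 2.37 CPM in wild type. H4 copies held 4.56 and 12.8 CPM in met-2 set-25, against 16.3 and 7.15 CPM in wild type. In each of these classes rWQS045 and rWQS019 were the high libraries. H3 copies held 8.52 and 12.8 CPM in met-2 set-25, against 23.2 and 13.6 CPM in wild type, a log2 ratio of means of -0.79, and rWQS045 was only just below rWQS042. Of these sums, his-32 alone held 5.55 and 2.65 CPM in met-2 set-25, against 7.87 and 7.78 CPM in wild type. It was the 1 gene of 7 tested H3 copies whose ranges did not overlap. With his-32 taken out, the H3 sums of the genotypes overlap. All 7 tested H3 copies had a log2 fold change below 0 in edgeR (median -0.85), as did 6 of 7 tested H4 genes, 3 of 5 H2B genes and 3 of 6 H2A genes. None of them passed either test at the adjusted threshold.

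**Figure D3:**
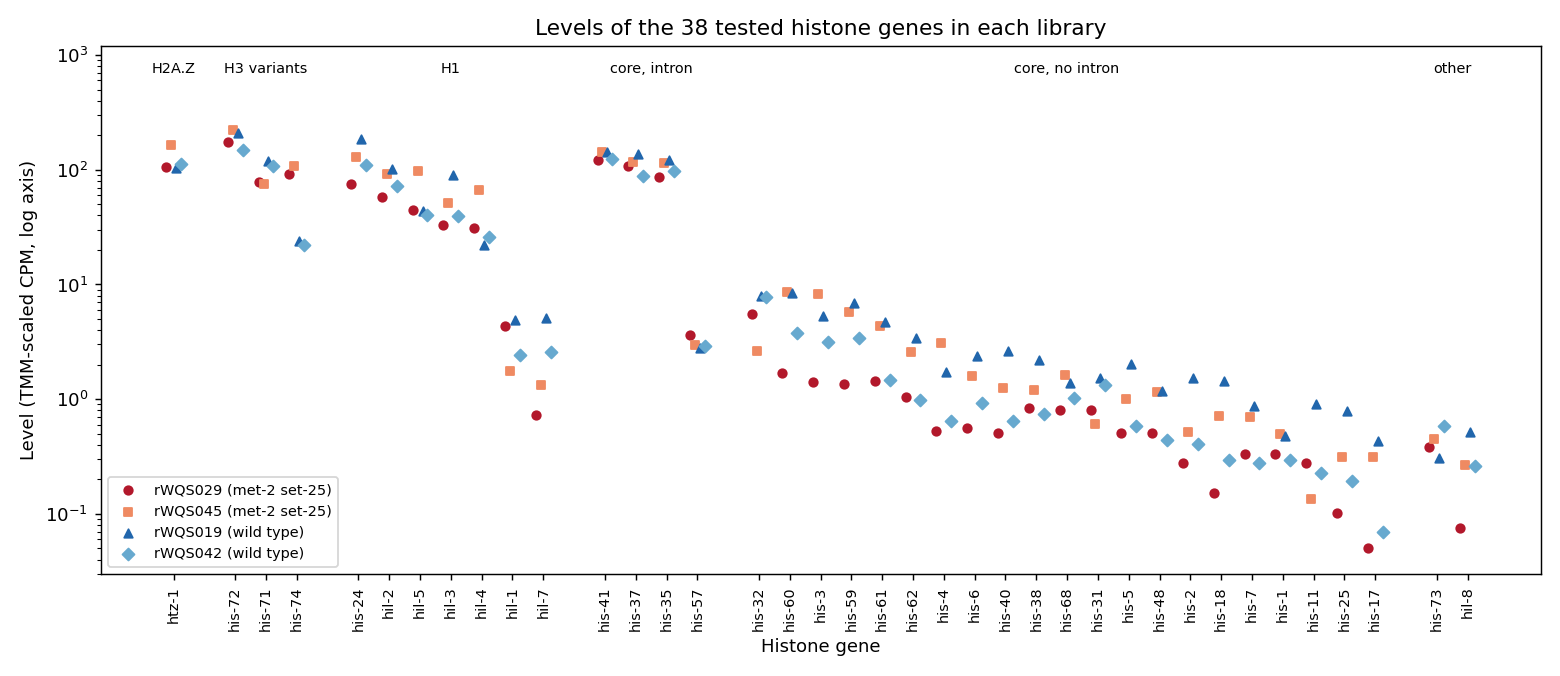
Levels of the 38 tested histone genes in each library (TMM-scaled CPM on a log axis), with the 2 met-2 set-25 libraries left of the 2 wild type libraries for each gene. For his-74 both mutant points (91.7 and 107 CPM) lie above both wild type points (24.1 and 22.1 CPM), while in the intronless core copies rWQS019 is highest in 16 of 21 and rWQS045 in 5.

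The clearest difference among histone genes was in the H3 variants, where his-74 rose by DESeq2. This H3 variant gene (WBGene00012276, chromosome V, 12659704 to 12660330 in WBcel235, with 1 intron and a 3′ untranslated region) was at 91.7 and 107 CPM in met-2 set-25, against 24.1 and 22.1 CPM in wild type. Both mutant libraries were high, and the gap between genotypes was wider than the spread within either. The means were 99.3 ± 10.7 CPM in met-2 set-25 and 23.1 ± 1.39 CPM in wild type (SD, n = 2 each), a 4.29-fold difference. Its edgeR log2 fold change was 2.10 with an adjusted p of 0.0977, the 48th smallest p of 15978 genes. By DESeq2 the log2 fold change was 2.12 (95% interval 1.44 to 2.79) with an adjusted p of 1.716e-07. The fold change ranged from 1.98 to 2.24 on the log2 scale with any 1 library omitted. The DESeq2 call was lost without rWQS019 (adjusted p = 0.104) and without rWQS042 (adjusted p = 0.0924), where 1 wild type library remained and was assumed to vary like the mutant. his-74 overlaps no other annotated gene and shares its Ensembl name with none.

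The other H3 variants passed neither test after adjustment. his-71, which lies on the X chromosome and encodes H3.3, was at 78.3 and 75.3 CPM in met-2 set-25, against 118.9 and 107 CPM in wild type. Both mutant libraries were low (edgeR log2 fold change -0.56, unadjusted p = 0.0487 and adjusted p = 0.493; DESeq2 adjusted p = 0.638). his-72, which also encodes H3.3, was at 173 and 224 CPM in met-2 set-25, against 207 and 149 CPM in wild type (edgeR log2 fold change 0.16, adjusted p = 0.874), with overlapping ranges. his-69 and his-70, neighbouring single-exon H3 variant genes on chromosome III, were near the counting floor and not tested, with at most 0.305 and 0.112 CPM in any library. Per kb of exon, his-74 made up 28.1% and 27.8% of H3 variant level in met-2 set-25, against 7.31% and 8.43% in wild type. The share of his-71 was 23.6% and 19.2% in met-2 set-25, against 35.4% and 39.98% in wild type, while that of his-72 overlapped (48.2% and 52.97% in met-2 set-25, against 57.2% and 51.5% in wild type). The summed level of the 5 H3 variants was 343 and 406 CPM in met-2 set-25, against 351 and 278 CPM in wild type, and overlapped.

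**Figure D4:**
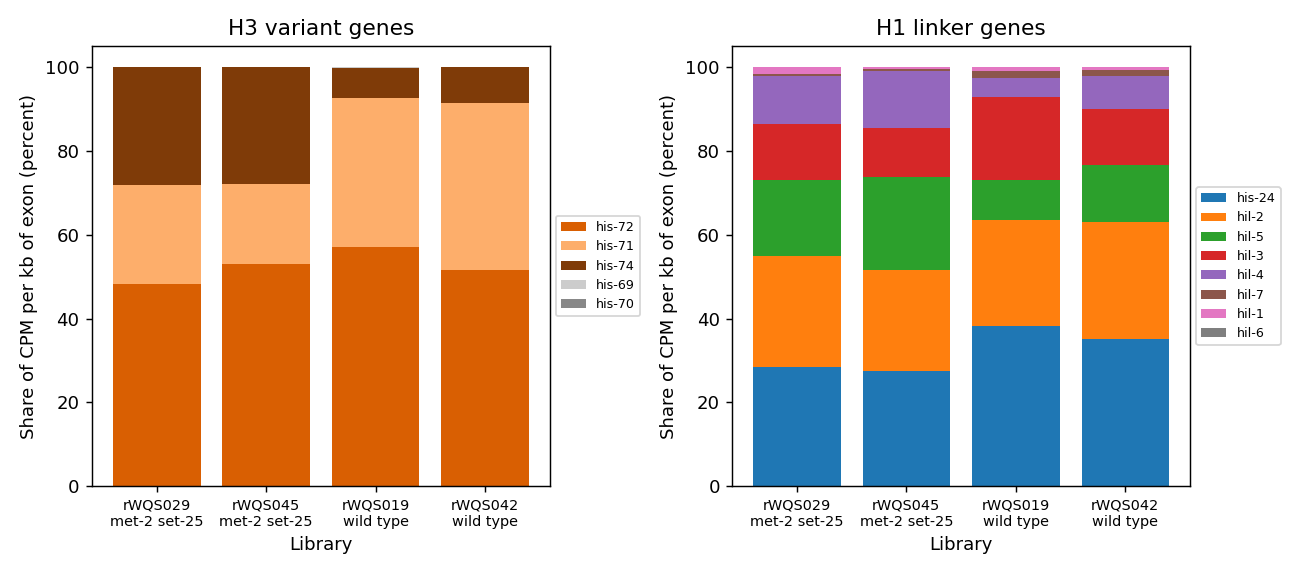
Make-up of the H3 variant genes (left) and H1 linker genes (right) as a share of CPM per kb of annotated exon, one bar per library. The his-74 share is 28.1% and 27.8% in the met-2 set-25 libraries and 7.31% and 8.43% in the wild type libraries, and the shares of hil-4 and hil-5 are also larger in both mutant libraries.

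In level per kb of exon, his-74 lay between htz-1 (183) and his-71 (130) in met-2 set-25, at a mean of 171 CPM per kb. In wild type it lay at 39.9 CPM per kb, between hil-5 (48.5) and hil-4 (25.03). The highest histone gene per kb was his-72 in both genotypes, at 311 CPM per kb in met-2 set-25 and 279 CPM per kb in wild type, followed by his-37 (260 in met-2 set-25 and 263 in wild type) and his-41 (255 in met-2 set-25 and 257 in wild type). The library ranges of these 3 genes overlapped in wild type, and in met-2 set-25 that of his-41 overlapped those of his-37 and his-72, while his-72 lay just above his-37. Around his-74, the next tested protein-coding genes were taken, equally many on each side and 10 in all. They lay within 37527 bases, with edgeR log2 fold changes of -0.95 to 2.35 and a median of 0.08. ccch-3, which lies 16 bases from his-74, had a log2 fold change of 0.78 (edgeR adjusted p = 0.517). DESeq2 called 1 of the 10, against 2.49% higher and 0.821% lower over all genes. The called neighbour was gpa-9 (log2 fold change 2.35 in edgeR, DESeq2 adjusted p = 2.73e-05), which encodes a G protein alpha subunit.

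htz-1, which encodes H2A.Z, was at 105 and 165 CPM in met-2 set-25, against 103 and 112 CPM in wild type (edgeR log2 fold change 0.32, adjusted p = 0.747). Only rWQS045 was high, and the ranges overlapped. Per kb, htz-1 gave 42.7% and 45.2% of the combined level of H2A copies and H2A.Z in met-2 set-25, against 33.3% and 41.6% in wild type, and his-35 gave most of the remainder.

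The H1 linker genes differed in direction from each other, and none passed the adjusted threshold. hil-4 was at 30.9 and 66.4 CPM in met-2 set-25, against 22.01 and 25.8 CPM in wild type (edgeR log2 fold change 1.02, adjusted p = 0.521). hil-5 was at 44.9 and 98.0 CPM in met-2 set-25, against 43.7 and 40.5 CPM in wild type (edgeR log2 fold change 0.76, adjusted p = 0.611). In both, rWQS045 was far above the rest while rWQS029 was close to wild type. Without rWQS045 the edgeR log2 fold changes were 0.37 for hil-4 (adjusted p = 0.639) and 0.093 for hil-5 (adjusted p = 0.921). Without rWQS029, where rWQS045 alone stood for the mutant and was assumed to vary like wild type, DESeq2 called hil-4 (adjusted p = 0.00347) and hil-5 (adjusted p = 0.0151) as higher, along with 9.1% of all genes in either direction. The germline markers were also highest in rWQS045, and their part in the H1 levels was not tested. hil-7 was at 0.735 and 1.32 CPM in met-2 set-25, against 5.13 and 2.58 CPM in wild type (edgeR log2 fold change -1.89, unadjusted p = 0.0205 and adjusted p = 0.391; DESeq2 adjusted p = 0.0822). Both mutant libraries were low, but the level was close to 1 CPM and the wild type libraries were well apart. Tested by edgeR without any low-count filter, hil-7 was called as lower (adjusted p = 0.0178) along with 4.34% of all genes. DESeq2 did so without rWQS045 (adjusted p = 0.0306), where it called 5.85% of all genes and rWQS029 alone was assumed to vary like wild type.

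The other tested H1 genes overlapped between genotypes. his-24, which encodes the linker histone H1.1, was at 74.8 and 129 CPM in met-2 set-25, against 186 and 111 CPM in wild type (edgeR log2 fold change -0.54, adjusted p = 0.693). It lies across from the noncoding genes M163.16 and M163.19, whose counts varied in the same order of libraries (15.5 and 27.3 CPM for M163.16 in met-2 set-25, against 40.7 and 23.6 CPM in wild type). hil-2 was at 57.6 and 92.0 CPM in met-2 set-25, against 101 and 72.1 CPM in wild type (edgeR log2 fold change -0.21, adjusted p = 0.858). hil-3 was at 32.9 and 51.1 CPM in met-2 set-25, against 89.9 and 39.5 CPM in wild type (edgeR log2 fold change -0.62, adjusted p = 0.6997), and its high wild type value came from rWQS019 alone. hil-1 was at 4.39 and 1.75 CPM in met-2 set-25, against 4.87 and 2.42 CPM in wild type (edgeR log2 fold change -0.24, adjusted p = 0.914), and hil-6 was at most 0.112 CPM in any library and was not tested. As shares of H1 level per kb, his-24 made up 28.3% and 27.5% in met-2 set-25, against 38.1% and 35.1% in wild type. hil-5 made up 18.1% and 22.3% in met-2 set-25, against 9.55% and 13.7% in wild type, and hil-4 11.3% and 13.7% in met-2 set-25, against 4.37% and 7.89% in wild type. These 3 shares did not overlap between genotypes, nor did those of hil-7, hil-6 and, only just, hil-3, while those of hil-2 and hil-1 overlapped. Shares within a class are tied to each other, since a larger share of 1 gene lowers the rest. How often shares part in this way among other genes was not computed. The summed H1 level overlapped, at 246 and 439 CPM in met-2 set-25, against 453 and 294 CPM in wild type. The 2 genes outside the groups were low: hil-8 was at 0.0761 and 0.269 CPM in met-2 set-25, against 0.522 and 0.263 CPM in wild type, and his-73, a coding annotation of 138 bases that overlaps W09H1.4, was at 0.380 and 0.448 CPM in met-2 set-25, against 0.305 and 0.578 CPM in wild type.

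Clustered copies and variant or linker genes were compared by the medians of their fold changes. The median edgeR log2 fold change was -0.25 over the 25 tested clustered core genes, with 6 above 0, and -0.21 over the 11 tested variant and linker genes, with 5 above 0. Among clustered genes it was -0.48 for the 21 intronless copies and -0.01 for the 4 genes with introns. Both medians moved with the filter and with single libraries. With all 4 libraries, DESeq2 gave -0.18 over 46 clustered core genes and -0.01 over 14 variant and linker genes. These sets include genes that edgeR's filter left out, so the medians are not over the same genes. With a minimum mean of 5 CPM, edgeR gave -0.16 over 5 clustered core genes and 0.12 over 9 variant and linker genes. Without rWQS019 the median was 0.39 for clustered core genes and 0.26 for variant and linker genes, and without rWQS042 it was -0.94 and -0.44. Without rWQS029 it was 0.06 for clustered core genes and -0.06 for variant and linker genes, and without rWQS045 it was -1.03 and -0.29. The summed level of all 65 clustered core genes was 339 and 422 CPM in met-2 set-25, against 463 and 341 CPM in wild type, a log2 ratio of means of -0.08.

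A list of 22 genes held those for histone mRNA ends, histone chaperones and variant exchange, and both centromeric H3 genes. All 22 had an edgeR log2 fold change above 0, against 51.6% of all genes, with a median of 0.40 against 0.02 over all genes. Ranges did not overlap in 12 of them, all higher in met-2 set-25, against 22.1% of all genes. At an unadjusted p under 0.05, edgeR gave 2 of the 22 as higher (cpar-1 and asfl-1), or 9.09%, against 6.2% of all genes. At the adjusted threshold edgeR called 0 of them and 0% of all genes. DESeq2 called 1 of them higher, against 2.49% of all genes. The called gene was cpar-1, which encodes a CENP-A type centromeric H3, at 10.1 and 12.2 CPM in met-2 set-25, against 1.22 and 1.42 CPM in wild type (log2 fold change 3.07 in edgeR, adjusted p = 0.0977; DESeq2 adjusted p = 3.858e-10). Its paralog hcp-3, the main CENP-A gene, was at 13.999 and 22.3 CPM in met-2 set-25, against 14.8 and 12.98 CPM in wild type (edgeR log2 fold change 0.39, adjusted p = 0.730). Reads shared by these paralogs could be split between them by the counting.

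cdl-1, which encodes the protein that binds the histone mRNA stem-loop, was at 38.3 and 84.9 CPM in met-2 set-25, against 33.2 and 37.6 CPM in wild type (edgeR log2 fold change 0.80, adjusted p = 0.608). asfl-1, an ASF1 histone chaperone gene, was at 6.01 and 13.6 CPM in met-2 set-25, against 3.78 and 4.22 CPM in wild type (edgeR log2 fold change 1.29, adjusted p = 0.489). In both, rWQS045 was the highest library by far, and all 22 genes of the list were higher in rWQS045 than in rWQS029 (median difference 0.57 on the log2 scale). In the replication list all 34 genes had a log2 fold change above 0 (median 0.51, against 51.6% of all genes above 0), and 15 were higher without overlap between genotypes, against 22.1% of all genes. For these 34, edgeR and DESeq2 each called 0 at the adjusted threshold. Over all genes edgeR called 0%, and DESeq2 called 2.49% higher and 0.821% lower. At an unadjusted edgeR p under 0.05 there were 0 of the 34, against 6.2% higher and 3.87% lower over all genes. The germline markers had a median of 1.76, with 11 of 21 called higher by DESeq2, against 2.49% of all genes, and 0 lower, against 0.821%. Yolk and adult cuticle genes summed to 8.67 and 5.11 CPM in met-2 set-25, against 2.48 and 2.49 CPM in wild type. Of this, vit-1 alone held 7.25 and 4.04 CPM in met-2 set-25, against 1.70 and 1.66 CPM in wild type. The other genes of this list were at most 0.673 CPM in any library, and 3 of the 8 passed edgeR's filter. DESeq2 called vit-1 higher (adjusted p = 0.0288), while edgeR did not (adjusted p = 0.309). Of the 6 genes for muscle, gut, epidermis and neurons, which mark a whole larva, none passed either test, and they summed to 5247 and 7068 CPM in met-2 set-25, against 4199 and 6220 CPM in wild type. The part of germline content in the levels of these chaperone, replication and histone genes was not tested.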

How the data were processed

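For each genotype the authors deposited a table of unnormalised counts, with genes as rows and libraries as columns. The study's methods describe libraries of the TruSeq RNA kit, STAR alignment to ce10 with WS235 genes, and HTSeq counting. The kit was taken to leave strand unmarked, which was not tested. The submitters' processing notes name featureCounts. Versions and the handling of multiply mapping reads are not given in the sources used here. Column names give genotype but no replicate number, and 0 columns were left out. The labels do not say whether cultures were separate, and the p-values therefore reflect only a library-to-library spread that may be technical.

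Genes were matched by WormBase identifier to Ensembl 115 (WBcel235) (46449 matched, 299 did not). Since Ensembl gave 36 histone genes 14 shared names, symbols came from RefSeq at identical positions (81 of 81). Histone classes followed the gene symbols, checked by coding length; product names and protein identity were not used. Counts were tested across all genes with edgeR 4.0.16 in R 4.3.3 (quasi-likelihood test, genotype only, TMM, filterByExpr, Benjamini-Hochberg, threshold 0.05). Alternatives were DESeq2 1.42.0, limma 3.58.1 voom, the edgeR likelihood ratio test, other factors and filters, other clustering distances, and each library left out. CPM values are TMM-scaled, shown per library or as mean ± SD. Because 0 genes passed edgeR, "rose" refers to DESeq2 calls.

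Named genes were the tested variant and linker genes, the 8 clustered core genes with the highest mean CPM, those with an unadjusted edgeR p or adjusted DESeq2 p under 0.05, and a few per list with cdl-1. his-31, hil-8, his-73 and the neighbours of his-74 were added after their values were seen. The members and gene lists were chosen with earlier results of these data known.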

Additional observations from a re-analysis of the deposited data

How the results depend on the processing

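Against 0 histone genes called, DESeq2 and the edgeR likelihood ratio test called 1 (his-74), edgeR with no filter called 2 (his-74 and hil-7), and an unadjusted p under 0.05 gave 3. limma voom, other scaling factors and a minimum mean of 5 CPM called 0. With a library left out, calls ranged from 0 to 4 (4 by DESeq2 without rWQS029, where it called 9.1% of all genes; DESeq2 with a library left out was chosen after seeing the data). Over all genes DESeq2 called 548, the likelihood ratio test 555 and no filter 1223, against 0. The median log2 fold change ranged from -1.03 to 0.45 for clustered core genes and from -0.44 to 0.29 for variant and linker genes with a library left out, and the summed core ratio from -0.29 to 0.15. The upper ends of both median ranges came from DESeq2, whose medians include genes that edgeR's filter left out.

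The direction turned with all 4 libraries for his-41 without a filter (0.0084), for his-37 by DESeq2 (0.0020), voom (0.030) and without a filter (0.012), and for his-3 by voom (-0.17). With a library left out, log2 fold changes turned within these ranges: his-72 -0.067 to 0.41, htz-1 -0.048 to 0.64, hil-1 -1.05 to 0.34, hil-2 -0.60 to 0.12, hil-3 -1.10 to 0.083, his-3 -1.57 to 1.01, his-35 -0.33 to 0.085, his-37 -0.29 to 0.33, his-41 -0.14 to 0.12, his-59 -1.94 to 0.19 and his-60 -1.84 to 0.54. hil-4, hil-5, hil-7, his-24, his-32, his-57, his-71 and his-74 kept their direction under each alternative that gave a value, and his-31, his-73, hil-8 and the named genes that are no histone genes by the rule were not recomputed. The cause was not tested. No paired analysis was possible because the column names carry no replicate numbers, so the replicate block was not run.

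With 2 libraries per genotype, and intronless copies mostly under 1 CPM, moderate differences in single copies were not detectable at this depth. Poly(A) selection, the unknown handling of reads shared by copies and strand taken as unmarked limit what counts of clustered genes measure. Intervals from counts cover counting error only.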
